A study of Mus musculus with 15 samples.

Results

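The change from 8 to 10 weeks of age was followed in islets of non-obese diabetic mice, a strain that develops autoimmune diabetes without any manipulation. The comparison covered 6 of the 15 islet samples of the study, 3 mice of 10 weeks against 3 mice of 8 weeks, and its members were every sample that the labels placed at these ages. All 15 mice were untreated NOD/ShiLtJ females, and the other samples came from mice of 4, 6 and 12 weeks. Islets were released with collagenase, enriched on a density gradient and picked by hand, so that each value is a level in a whole islet preparation, with every leukocyte, vessel and stray exocrine cell that came with it. RNA with a poly(A) tail was sequenced from each mouse, with 1 library per mouse and no separate library of sorted cells. Mice of an age are named here as mouse 1, 2 and 3, and the labels do not tie a mouse of 8 weeks to a mouse of 10 weeks.

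In this strain, leukocytes first gather at the rim of the islet and then spread into it, which is called insulitis. As the infiltrate grows, T and B cells can sort themselves into areas like those of a lymph node, guided by chemokines such as CXCL13 and CCL19 and fed by venules with a high endothelium through which blood lymphocytes enter. Beta cells face interferons and cytotoxic T cells in the process and are lost over the following weeks.

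A gene was called, and is written as having risen or fallen, when its fold change was at least 1.5 and its unadjusted p was under 0.05. The p came from edgeR's quasi-likelihood test. Both cut-offs are those of the study, whose own calls came from the Empirical Analysis of DGE tool of CLC Genomics Workbench. Between 8 and 10 weeks 2306 of 16554 genes tested (13.9%) passed both cut-offs, 1837 higher (11.1%) and 469 lower (2.83%) at 10 weeks. Counts of list members that rose or fell are to be read beside these shares. At a Benjamini-Hochberg adjusted p under 0.05 with no minimum fold, 1391 genes were higher (8.4%) and 1385 lower (8.37%), and their adjusted p-values lay between 0.0194 and the threshold. These adjusted calls all disappeared when mouse 1 or mouse 2 of 8 weeks, or mouse 1 or mouse 2 of 10 weeks, was left out, so that each adjusted p below holds for the full set of mice. The count past the fold and p threshold was 1275 without mouse 1 of 8 weeks, 1270 without mouse 1 of 10 weeks and 3518 without mouse 3 of 10 weeks. Median log2 fold change over all genes tested was -0.01. Total counts of the 6 libraries ran from 25407492 to 37075834, and a count of 3, taken as the floor of detection, was worth 0.0753 to 0.109 CPM, the count scaled to library size.

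The 2 ages were not 2 tight groups. Mouse 1 of 8 weeks had the fewest leukocyte transcripts and mouse 3 of 10 weeks had fewer than the other mice of its age. The geometric mean level of 20 pan-leukocyte genes, set to 100% in the highest mouse, was 5.79%, 29.0% and 39.0% in mice 1, 2 and 3 of 8 weeks and 100%, 82.0% and 44.8% in mice 1, 2 and 3 of 10 weeks. The same measure over 14 pan-endocrine genes was 100%, 87.1% and 81.6% at 8 weeks and 54.6%, 64.0% and 79.3% at 10 weeks, so that the lowest leukocyte level went with the highest endocrine level. The labelled tissue was present in all 6, since 15.6% to 28.4% of all counts came from the hormone genes Ins1, Ins2, Iapp, Gcg, Sst, Ppy and Pyy. Acinar genes, which mark exocrine tissue, varied within both ages, with a sum over 20 genes of 9730, 5050 and 2780 CPM at 8 weeks and of 25300, 9950 and 3120 CPM at 10 weeks. None of the 20 acinar genes was called, though all 20 had estimates above 0, with a median log2 fold change of 1.12. That median was 0.19 without mouse 1 of 10 weeks, and 2.17 with mouse 1 of 8 weeks and mouse 3 of 10 weeks both left out. The part of acinar carry-over in the results below was not tested.

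**Figure D1:**
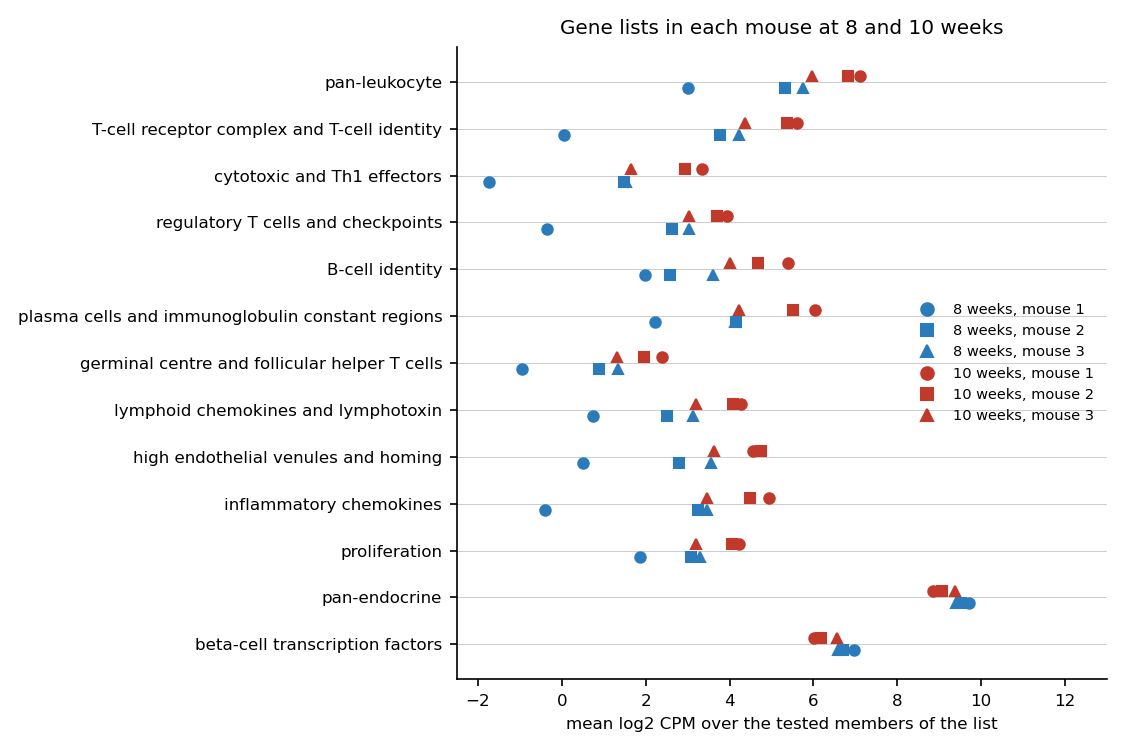
Mean log2 CPM over the tested members of 13 gene lists (x axis), with 1 point per mouse, blue for 8 weeks and red for 10 weeks, and a symbol for each mouse number. The T-cell list is at 0.06 in mouse 1 of 8 weeks and at 5.61 in mouse 1 of 10 weeks, while the pan-endocrine and beta-cell transcription factor lists run the other way over a much narrower range.

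Lymphoid genes were higher at 10 weeks, though far from all of them passed the test. Over 9 lists of lymphocyte and lymphoid-tissue genes, 50 of 126 genes tested rose and none fell, with a median log2 fold change of 1.60. Without mouse 1 of 8 weeks, mouse 1 of 10 weeks or mouse 2 of 10 weeks, 30, 24 and 33 of them rose. The clearest of these was the B-cell list, in which all 16 genes rose, a share of 100% against 11.1% of all genes. Pan-leukocyte genes rose in 15 of 20 cases, and all 20 were higher in each mouse of 10 weeks than in any mouse of 8 weeks, which held for 17.2% of all genes. With mouse 1 of 8 weeks and mouse 3 of 10 weeks both left out, 49 lymphoid and 7 pan-leukocyte genes rose.

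B-cell identity genes encode the surface proteins and transcription factors that define the lineage. Pax5, the factor that commits cells to the B lineage (chr4:44524757-44710487, minus strand, GRCm38), was at 5.43, 4.88 and 12.3 CPM in mice 1, 2 and 3 of 8 weeks and at 58.7, 33.2 and 21.5 CPM in mice 1, 2 and 3 of 10 weeks. Every mouse of 10 weeks was above every mouse of 8 weeks, although mouse 3 of each age was the closest to the other age. The rise was 5.0-fold (log2 fold change 2.32 ± 0.48, SE, 3 mice per age, edgeR adjusted p = 0.0236). Cd79a, which carries the signal of the B-cell receptor, stood at 13.9, 14.0 and 30.1 CPM at 8 weeks and at 98.1, 64.2 and 45 CPM at 10 weeks, again without overlap, and rose 3.58-fold (adjusted p = 0.0237).

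Among inhibitory and complement receptors, Cd22 had 5.54, 8.38 and 21.9 CPM at 8 weeks and 82.4, 54.2 and 33.5 CPM at 10 weeks, a 4.75-fold rise. Genes of mature follicular B cells moved with them, namely Fcer2a, the low-affinity IgE receptor CD23, which rose 4.39-fold, and Cr2, the complement receptor CD21, which rose 3.87-fold. Across the list 12 of 16 genes had an adjusted p under 0.05, 15 of 16 were without overlap between the ages, and Pou2af1, a coactivator of the octamer factors, was the exception with 14.0 CPM in mouse 3 of 8 weeks against 11.5 CPM in mouse 3 of 10 weeks. The smallest rise was that of Ebf1, an early B-lineage factor that other cells also express, at 1.72-fold. The count of B-cell genes that rose stayed between 12 and 16 whichever mouse was left out.

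**Figure D2:**
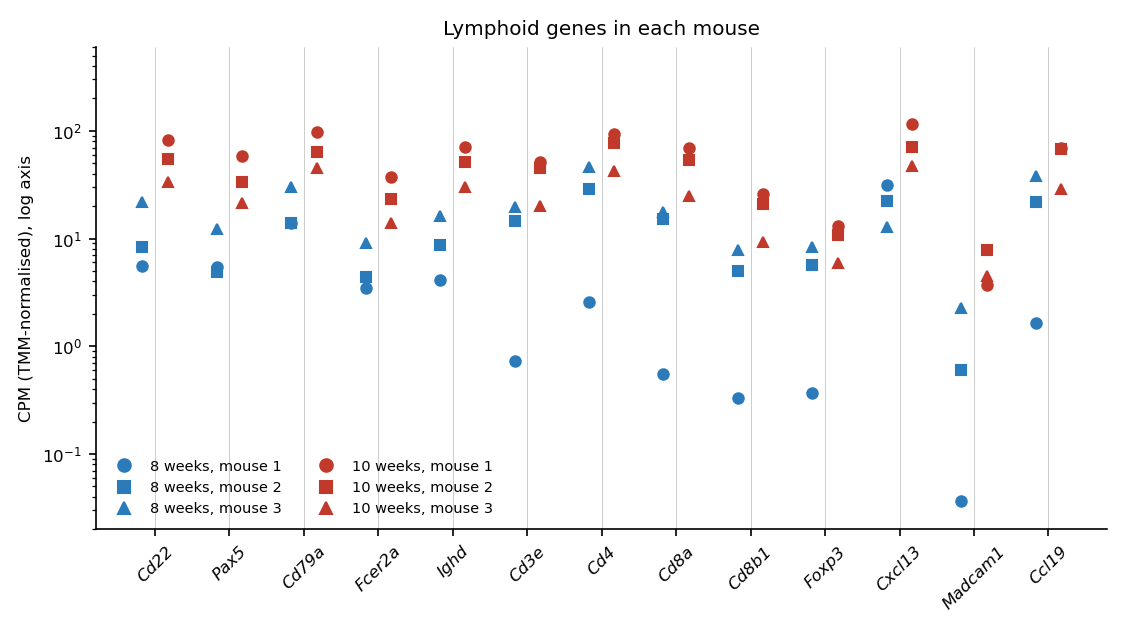
CPM on a log axis for 13 lymphoid genes, with 1 point per mouse, blue for 8 weeks and red for 10 weeks. B-cell genes at the left separate the ages in every mouse, and T-cell genes such as Cd3e and Cd4 show mouse 1 of 8 weeks far below the rest and mouse 3 of 10 weeks level with mouse 3 of 8 weeks.

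T-cell genes were less clearly resolved. The list of the T-cell receptor complex and T-cell identity had a median log2 fold change of 1.71, close to the 1.98 of the B-cell list, but 6 of 18 genes rose and 1 had an adjusted p under 0.05. The count that rose was 2 without mouse 1 of 8 weeks and 1 without mouse 2 of 8 weeks, mouse 1 of 10 weeks or mouse 2 of 10 weeks. Cd3e, a signalling chain of the receptor, was at 0.729, 14.5 and 19.8 CPM in mice 1, 2 and 3 of 8 weeks and at 51.4, 44.8 and 20 CPM in mice 1, 2 and 3 of 10 weeks. Mouse 1 of 8 weeks stood far below the others, and mouse 3 of 10 weeks was level with mouse 3 of 8 weeks. The fitted difference of Cd3e was 3.31-fold with an SE of 1.04 on the log2 scale (log2 fold change 1.73) and did not pass (adjusted p = 0.236).

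Cd4, the co-receptor of helper T cells, had 2.55, 28.7 and 46.0 CPM at 8 weeks and 92.5, 76.8 and 42.3 CPM at 10 weeks, so that the ages overlapped (adjusted p = 0.273). Cd8b1, the beta chain of the co-receptor of cytotoxic T cells, had 0.328, 4.99 and 7.75 CPM at 8 weeks and 25.9, 20.8 and 9.27 CPM at 10 weeks, without overlap, and rose 4.28-fold (adjusted p = 0.115). Its partner Cd8a had a similar estimate of 4.45-fold and did not pass (adjusted p = 0.142). The other genes that rose were Cd2, Lat, Bcl11b, Tcf7 and Thy1, with folds from 2.46 for Thy1 to 3.60 for Tcf7. Thy1, whose adjusted p was 0.0443, is also made by fibroblasts and pericytes and was counted in that list too. Bcl11b, a factor that T cells need to keep their identity, rose 3.27-fold (adjusted p = 0.0939), from 1.39, 10.7 and 15.2 CPM to 42.1, 31.0 and 16.2 CPM.

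The spread within 8 weeks differed between the lineages. Mouse 1 of 8 weeks lay 3.94 log2 units below the mean of mice 2 and 3 in the T-cell list and 1.11 below it in the B-cell list, whereas mouse 3 of 10 weeks lay 1.12 and 1.04 below the mean of its age mates in the T-cell and B-cell lists. When both of these mice were left out, a choice made after seeing the data, the medians were 1.46 for T cells and 1.95 for B cells, and 7 and 15 genes rose. Whether the T-cell and B-cell lists differed in their change was not tested.

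Cytotoxic and Th1 effector genes had a median log2 fold change of 1.91, and 5 of 15 rose. Gzmk, a granzyme of memory-like CD8 T cells, was at 0.219, 1.85 and 0.857 CPM at 8 weeks and at 6.58, 4.29 and 1.63 CPM at 10 weeks. Mouse 3 of 10 weeks fell among the mice of 8 weeks, and the rise was 4.25-fold (adjusted p = 0.0556). Eomes, a factor of effector and memory CD8 T cells and of natural killer cells, rose 5.0-fold, Prf1, which encodes the pore-forming perforin, 4.74-fold, Klrd1, a lectin-like receptor, 3.95-fold, and Il12rb2, a chain of the interleukin 12 receptor, 3.76-fold. Ifng, the Th1 cytokine, had 0.182, 3.07 and 2.78 CPM at 8 weeks and 6.62, 4.72 and 2.33 CPM at 10 weeks and did not pass (adjusted p = 0.413). Gzmk had the smallest p of this list, in which no adjusted p was under 0.05.

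Of 13 regulatory T-cell and checkpoint genes 2 rose, a share near the 11.1% of all genes, or 1 without the outlying mice, mouse 1 of 8 weeks and mouse 3 of 10 weeks. The median of the list was 1.40. Tnfrsf18, which encodes the receptor GITR, was at 1.2, 3.88 and 5.68 CPM at 8 weeks and at 11.7, 12.2 and 6.54 CPM at 10 weeks, without overlap, a 2.82-fold rise (adjusted p = 0.0616). Cd274, the ligand PD-L1, which leukocytes and beta cells both can make under interferon, was at 19.1, 67.4 and 74.1 CPM at 8 weeks and at 160, 124 and 91.1 CPM at 10 weeks, a 2.33-fold rise (adjusted p = 0.113). Foxp3, the defining factor of regulatory T cells, had 0.365, 5.67 and 8.32 CPM at 8 weeks and 13.1, 10.9 and 5.88 CPM at 10 weeks. Its ages overlapped, and the estimate of 2.08-fold did not pass (adjusted p = 0.487). Receptors of exhausted or inhibited T cells, Pdcd1 at 2.65-fold, Lag3 at 3.36-fold and Tigit at 2.86-fold, did not pass either.

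Of 17 genes of plasma cells and immunoglobulin constant regions 4 rose, against 11.1% of all genes. Ighd, the constant region of IgD, a mark of naive B cells, was at 4.16, 8.73 and 16.2 CPM at 8 weeks and at 71.0, 51.5 and 30.1 CPM at 10 weeks, without overlap, a 5.23-fold rise (adjusted p = 0.0271). Ighm, the constant region of IgM, was at 164, 536 and 1160 CPM at 8 weeks and at 1300, 999 and 406 CPM at 10 weeks, with mouse 3 of 10 weeks below mice 2 and 3 of 8 weeks, and did not pass (1.46-fold, adjusted p = 0.667). Constant regions of the lambda light chain rose, Iglc3 by 4.46-fold and Iglc2 by 4.05-fold, as did Ighg1 by 5.88-fold, although mouse 3 of 10 weeks lay within the range of 8 weeks for Ighg1 and Iglc2. The genes Jchain, Mzb1, Prdm1 and Derl3, which serve antibody secretion, did not pass. Immunoglobulin constant regions share near-identical stretches, and how the counting divided such reads was not given in the sources used here.

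Variable segments of the antigen receptors gave a further view of the lymphocytes. Many clones share a segment, so that a number of segments is not a number of clones. Heavy-chain V segments with more than 3 counts numbered 40, 54 and 62 in mice 1, 2 and 3 of 8 weeks and 83, 83 and 68 in mice 1, 2 and 3 of 10 weeks. Every mouse of 10 weeks thus had more segments in view than any mouse of 8 weeks. Alpha-chain V segments of the T-cell receptor numbered 0, 8 and 15 at 8 weeks and 36, 49 and 20 at 10 weeks. The deepest of the 6 libraries was that of mouse 2 of 10 weeks, lymphocyte genes were also higher at 10 weeks, and the part of depth and of lymphocyte RNA in these numbers was not tested.

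The segment with the highest count made up a larger share of its chain at 8 weeks for immunoglobulins, while the ages overlapped for the T-cell receptor. The leading light-chain segment made up 23.7%, 27.9% and 47.0% of the light-chain V signal in mice 1, 2 and 3 of 8 weeks, against 13.5%, 14.7% and 18.0% in mice 1, 2 and 3 of 10 weeks. For the heavy chain the shares were 23.9%, 25.2% and 33.3% against 23.5%, 21.0% and 14.5%, so that the ages nearly touched. For the alpha chain, of which mouse 1 of 8 weeks had no segment over 3 counts, they were 8.25% and 9.26% in mice 2 and 3 of 8 weeks against 6.81%, 10.6% and 4.97%. For the beta chain they were 29.4%, 22.7% and 11.4% against 9.54%, 11.9% and 10.0%. The first of these shares rests on few reads, since mouse 1 of 8 weeks had 2 beta-chain segments over 3 counts and a sum of 0.62 CPM. Among the 10 largest increases of all genes without overlap, 9 were such segments and 1 was a gene model without a name. Segments of a family are close in sequence, so that each is uncertain on its own.

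Germinal centres are the structures in which B cells mutate their receptors with help from follicular T cells. Of 13 genes tested 4 rose, namely Fas, Cxcr5, Cd40lg and Il21, against 11.1% of all genes. Without both outlying mice 2 rose. Cxcr5, the receptor that draws B cells and follicular helper T cells towards CXCL13, was at 1.68, 4.42 and 8.60 CPM at 8 weeks and at 28.0, 17.8 and 11.5 CPM at 10 weeks, without overlap, a 3.89-fold rise (adjusted p = 0.0817). Fas, the death receptor carried by germinal-centre B cells and many other cells, rose 2.21-fold (adjusted p = 0.0418), from 2.04, 4.88 and 4.71 CPM to 11.4, 8.99 and 5.32 CPM. Il21, the cytokine of follicular helper T cells, rose 3.61-fold, from 0.0729, 1.85 and 2.21 CPM to 7.16, 4.54 and 3.32 CPM. Bcl6, the master factor of the germinal centre, was not called (1.64-fold, adjusted p = 0.19).

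Chemokines that lay out lymphoid tissue came next. Cxcl13, the chemokine of B-cell follicles (chr5:95956951-95961068, plus strand, GRCm38), was at 31.6, 22.3 and 12.8 CPM in mice 1, 2 and 3 of 8 weeks and at 115, 71.5 and 47.3 CPM in mice 1, 2 and 3 of 10 weeks. The ages did not overlap, and at 8 weeks the order of mice was the reverse of that of the B-cell genes, with mouse 1 the highest. Its rise was 3.50-fold (log2 fold change 1.81 ± 0.55, adjusted p = 0.0433), and 2.40 on the log2 scale with both outlying mice left out.

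Ccl19, the chemokine of T-cell areas, was at 1.64, 21.9 and 37.8 CPM at 8 weeks and at 69.4, 67.1 and 28.7 CPM at 10 weeks, overlapped and did not pass (adjusted p = 0.253). Lymphotoxins, which keep lymphoid stroma in place, rose, Ltb 3.58-fold and Lta 2.69-fold, while their receptor Ltbr stood at 22.2 to 23.7 CPM at 8 weeks and 23 to 28.4 CPM at 10 weeks and was not called. Il7r, the receptor of the lymphocyte survival cytokine interleukin 7, rose 3.33-fold (adjusted p = 0.0471), from 1.86, 8.23 and 7.82 CPM to 24.7, 23.8 and 11.2 CPM. Altogether 5 of 12 genes of this list rose.

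High endothelial venules and homing receptors gave 7 of 14 genes that rose. Madcam1, the mucosal addressin, was at 0.0365, 0.606 and 2.28 CPM at 8 weeks and at 3.69, 7.76 and 4.48 CPM at 10 weeks, without overlap, a 5.43-fold rise (adjusted p = 0.055). Glycam1, a mucin-like protein made by the venules, ranged from 0.0729 to 31.5 CPM at 8 weeks and from 21.9 to 79.1 CPM at 10 weeks and did not pass (4.15-fold, adjusted p = 0.134).

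Among the other adhesion genes, the selectins Selp and Sele rose 2.48-fold and 2.89-fold and the chemokine-binding receptor Ackr1 2.09-fold. Itga4, an integrin chain on leukocytes, rose 1.77-fold (adjusted p = 0.035), and Gcnt1, which builds selectin ligands, 1.67-fold (adjusted p = 0.0489). Vcam1 at 2.49-fold and Icam1 at 2.68-fold, the endothelial partners of leukocyte integrins, did not pass. Of 12 general endothelial genes none was called, against 11.1% of all genes called higher, and the difference from the venule list was not tested. Their median was 0.05, and the adhesion protein Pecam1, with 107, 119 and 112 CPM at 8 weeks and 150, 154 and 113 CPM at 10 weeks, was 1.23-fold higher by estimate. Emcn, a sialomucin of capillaries and veins, was at 27.7, 26.8 and 20 CPM at 8 weeks and at 17.9, 21.1 and 21.7 CPM at 10 weeks.

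Inflammatory chemokines draw effector T cells. Of 10 such genes Ccl3 and Ccl4 rose, against 11.1% of all genes, by 3.83-fold (adjusted p = 0.0427) and 4.57-fold. Without both outlying mice 1 gene rose. Ccl3 was at 0.839, 1.28 and 1.64 CPM at 8 weeks and at 7.41, 5.37 and 1.66 CPM at 10 weeks, so that mouse 3 of 10 weeks was level with mouse 3 of 8 weeks. Cxcl9, a ligand of CXCR3 that interferon gamma induces, had 2.44, 181 and 179 CPM at 8 weeks and 409, 318 and 145 CPM at 10 weeks. Mouse 1 of 8 weeks was again the low point, mouse 3 of 10 weeks was below mice 2 and 3 of 8 weeks, and the 2.40-fold estimate did not pass (adjusted p = 0.535).

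**Figure D3:**
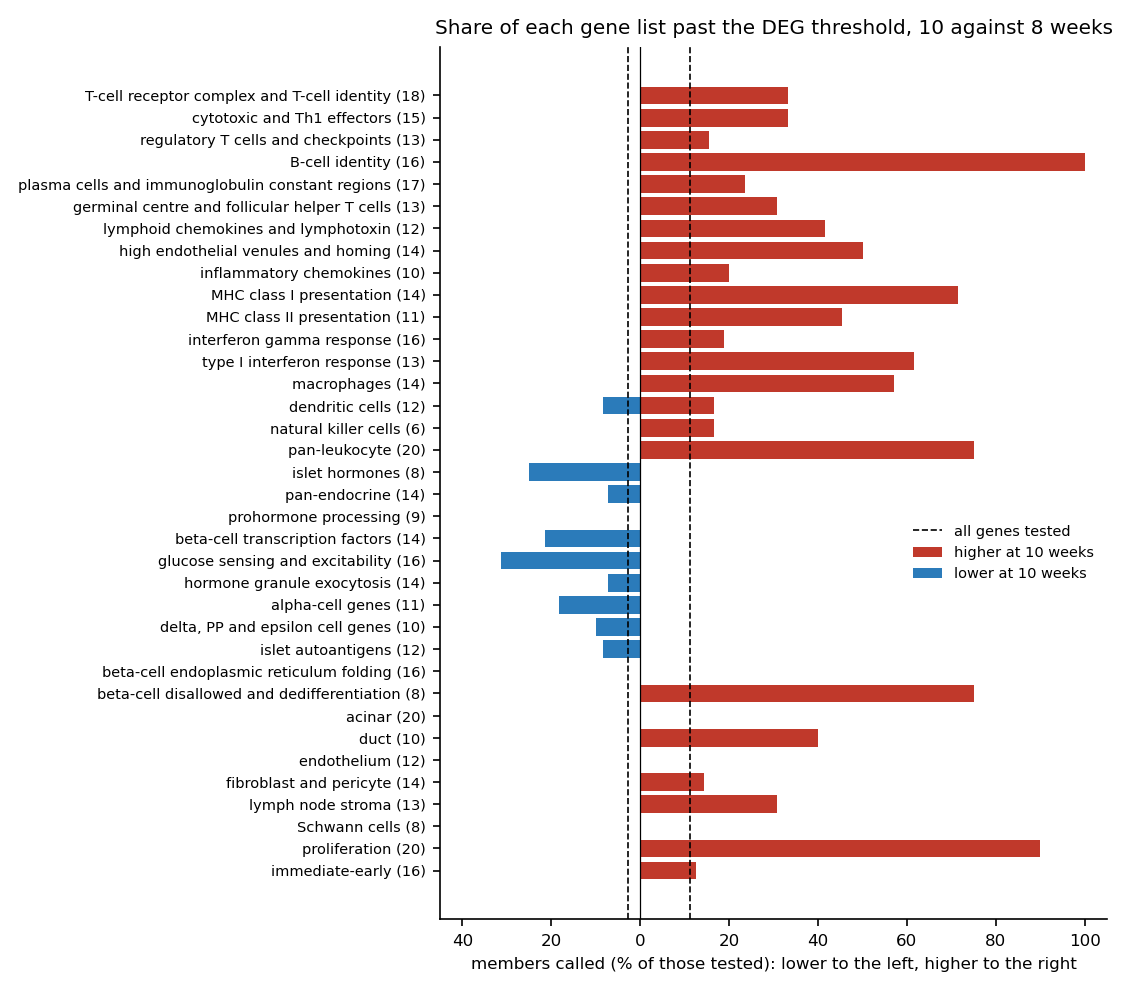
Share of the tested members of the larger gene lists that rose (red, to the right) or fell (blue, to the left) at 10 against 8 weeks, in percent, with the number tested in brackets and dashed lines at 11.1% and 2.83%, the shares over all genes. B-cell, proliferation, pan-leukocyte and MHC class I lists and the list of disallowed and dedifferentiation genes lie farthest to the right, and other lists of endocrine genes lie to the left.

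Antigen presentation and interferon response followed. Of 14 genes of MHC class I presentation 10 rose, with a median log2 fold change of 1.19, and 4 rose without both outlying mice. Psme2, an activator of the proteasome that trims peptides, was at 49.0, 90.3 and 98.6 CPM at 8 weeks and at 160, 157 and 123 CPM at 10 weeks, without overlap, a 1.85-fold rise (adjusted p = 0.0387). Its partner Psme1 rose 1.83-fold and the peptide transporter Tap2 2.06-fold (adjusted p = 0.0455 and 0.0482). H2-K1 at 2.32-fold and B2m at 2.21-fold, the heavy and light chains of the presenting molecule, did not pass, and class I genes share stretches that can misplace reads.

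Of 11 genes of MHC class II presentation 5 rose, all of them editors of the peptide groove or their inhibitors: H2-DMa, H2-DMb1, H2-DMb2, H2-Oa and H2-Ob. Without both outlying mice 2 rose. H2-DMb2 was at 5.54, 19.6 and 33.0 CPM at 8 weeks and at 84.6, 74.0 and 40.8 CPM at 10 weeks, a 3.43-fold rise (adjusted p = 0.0911). H2-Ob, which B cells make, rose 3.31-fold (adjusted p = 0.0961). The class II chain genes H2-Aa, H2-Ab1 and H2-Eb1 had estimates of 2.5-fold to 2.64-fold and did not pass. Over these genes the range was 71.4 to 566 CPM at 8 weeks and 554 to 1230 CPM at 10 weeks.

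Of 13 type I response genes 8 rose (median 1.17), and of 16 interferon gamma response genes 3 rose (median 1.26), against 11.1% of all genes. Without both outlying mice 7 and 1 rose, and the difference between the lists was not tested. Irf7, the factor that amplifies type I interferon, was at 5.36, 12.8 and 17.8 CPM at 8 weeks and at 39.5, 42.7 and 23.5 CPM at 10 weeks, without overlap, a 2.94-fold rise (adjusted p = 0.0487). Rsad2, the antiviral protein viperin, rose 1.95-fold (adjusted p = 0.0538), and Isg15, a ubiquitin-like modifier, 2.68-fold (adjusted p = 0.0735), from 1.2, 5.03 and 6.78 CPM to 16.3, 12.5 and 6.08 CPM. In the interferon gamma list Icosl, a B-cell and dendritic-cell ligand of ICOS, rose 2.71-fold (adjusted p = 0.067), Irf1 2.07-fold (adjusted p = 0.0904) and Ido1 3.70-fold. Guanylate-binding proteins and immunity-related GTPases had estimates of 2.18-fold to 2.78-fold over 9 genes and did not pass: Gbp2, for example, was at 9.63, 156 and 139 CPM at 8 weeks and at 326, 244 and 144 CPM at 10 weeks.

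Promoters of these genes are shown because they hold letters known from interferon-response elements, which is a description of sequence and no evidence of binding. The letters GAAANNGAAA, searched on both strands in the 250 bases before the start of each gene in RefSeq's GRCm38.p6 annotation, occurred in 5 of 9 type I response genes with a promoter in that table and in 7 of 11 interferon gamma response genes, against 3.46% of 27025 genes. This motif and CCAAT below were picked for display out of 20 motifs searched. Capitals mark each match, overlapping ones included, on either strand, in windows of 60 bases read 5′ to 3′ on the strand of the gene. The windows are chr4:156200850-156200909 (minus strand, Isg15), chr19:34640779-34640838 (plus strand, Ifit1), chr12:26456538-26456597 (minus strand, Rsad2), chr3:142620579-142620638 (plus strand, Gbp2), chr11:58199496-58199555 (plus strand, Igtp) and chr11:48871421-48871480 (minus strand, Irgm1), in the order below.
Isg15: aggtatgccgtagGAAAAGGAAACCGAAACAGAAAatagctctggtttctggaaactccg
Ifit1: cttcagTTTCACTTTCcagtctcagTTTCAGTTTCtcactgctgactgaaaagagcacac
Rsad2: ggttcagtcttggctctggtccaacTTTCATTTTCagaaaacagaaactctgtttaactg
Gbp2: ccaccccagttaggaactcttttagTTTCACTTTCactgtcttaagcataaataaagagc
Igtp: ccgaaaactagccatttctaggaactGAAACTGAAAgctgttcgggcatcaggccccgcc
Irgm1: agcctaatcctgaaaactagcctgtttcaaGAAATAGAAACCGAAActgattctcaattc
Isg15 and Rsad2 were among the genes that rose, while Ifit1 (1.85-fold, adjusted p = 0.146), Gbp2, Igtp and Irgm1 carry the letters and did not pass.

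Proliferation genes rose as a group, 18 of 20, with a median log2 fold change of 1.11, or 10 of 20 without mouse 1 of 10 weeks. Mcm2, a subunit of the replicative helicase, was at 14.8, 17.7 and 22.4 CPM at 8 weeks and at 36.1, 37.1 and 25.9 CPM at 10 weeks, without overlap, a 1.80-fold rise with the smallest p of the listed genes (log2 fold change 0.85 ± 0.16, adjusted p = 0.0219). Pcna, the sliding clamp, was at 26.2, 36.9 and 38.5 CPM at 8 weeks and at 63.6, 57.2 and 44.8 CPM at 10 weeks, a 1.63-fold rise (adjusted p = 0.0237). Mki67, the usual mark of cycling cells, was at 9.26, 32.6 and 35.4 CPM at 8 weeks and at 74.8, 59.0 and 33.8 CPM at 10 weeks, so that mouse 3 of 10 weeks fell among the mice of 8 weeks, and rose 2.17-fold (adjusted p = 0.0718). Mitotic genes such as Ccnb2 at 2.59-fold, Top2a at 2.32-fold and Foxm1 at 1.98-fold rose too. In the list 6 of 20 genes were higher in each mouse of 10 weeks than in any of 8 weeks, against 17.2% of all genes. Aurka and Aurkb did not pass. The libraries do not tell which cells were cycling.

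Promoters of the mitotic genes are known for CCAAT boxes, and these letters, on either strand, occurred in 14 of 16 proliferation genes with a promoter in the table, against 37.5% of all 27025 genes. They also occurred in 14 of 15 genes of the endoplasmic reticulum folding list described below, of which none was called. The windows are chr11:99024216-99024275 (minus strand, Top2a), chr9:70421555-70421614 (minus strand, Ccnb2) and chr7:135716489-135716548 (minus strand, Mki67), with the letters or their reverse complement in capitals.
Top2a: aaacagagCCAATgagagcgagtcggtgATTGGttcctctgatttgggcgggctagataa
Ccnb2: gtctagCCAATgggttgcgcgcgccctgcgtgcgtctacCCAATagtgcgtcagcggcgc
Mki67: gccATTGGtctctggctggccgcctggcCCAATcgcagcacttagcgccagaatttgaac
Each of these windows holds the box at 2 places within 60 bases, and all 3 genes rose. They were picked from a larger set. The window of Aurka also holds the box at 2 places, and Aurka did not pass. Those of Mcm2 and Pcna do not hold it at 2 places, and both genes rose. Whether the number of boxes went with a rise was not tested.

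Other leukocytes were measured with the same libraries. Macrophage genes rose in 8 of 14 cases, with a median of 1.05. Apoe, a lipid carrier of macrophages that other cells also make, was at 175, 217 and 348 CPM at 8 weeks and at 617, 576 and 314 CPM at 10 weeks, a 2.04-fold rise (adjusted p = 0.0328). Cd14, the endotoxin co-receptor, rose 1.85-fold (adjusted p = 0.0334), from 5.29, 8.63 and 6.68 CPM to 13.2, 15.4 and 9.43 CPM, and the complement genes C1qa, C1qb and C1qc rose 2.13-fold to 2.45-fold.

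Of 12 dendritic-cell genes 2 rose, a share near the 11.1% of all genes, and 1 fell, against 2.83% of all genes. Those that rose were Zbtb46, a factor of classical dendritic cells, by 1.89-fold (adjusted p = 0.0456) and Fscn1, an actin bundler of migrating cells, by 2.12-fold. The chemokine Ccl17 fell by 1.09 on the log2 scale, from 0.328, 0.463 and 0.5 CPM to 0.109, 0.276 and 0.199 CPM. Of 6 natural killer genes 1 rose, against 11.1% of all genes, namely Eomes, which T cells share. Klre1 had an estimate of 3.57-fold (adjusted p = 0.136). Neutrophil genes were low: S100a8 had no count at 8 weeks and 11, 9 and 2 counts at 10 weeks, and of 8 genes 2 passed the filter on low counts, Csf3r at 2.35-fold (adjusted p = 0.231) and Cxcr2, which was called on 2, 0 and 0 counts at 8 weeks against 5, 13 and 5 counts at 10 weeks. Ptpn6, a phosphatase of all blood cells, had the smallest p of the pan-leukocyte list (2.12-fold, adjusted p = 0.0251), followed by Hcls1 at 3.31-fold (adjusted p = 0.0792).

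Tissue other than islet cells and leukocytes was measured with lists of its own markers. Duct genes rose in 4 of 10 cases, against 11.1% of all genes, around a median of 0.13. Muc1, a mucin of epithelia, was at 2.88, 4.85 and 3.71 CPM at 8 weeks and at 7.56, 12.0 and 5.68 CPM at 10 weeks, without overlap, a 2.20-fold rise (adjusted p = 0.0295), and Spp1, osteopontin, which macrophages make too, rose 1.67-fold (adjusted p = 0.032). Krt19, a keratin of ducts and mesothelium, rose 2.18-fold (adjusted p = 0.0646). The acinar genes with the smallest p were Ptf1a at 3.18-fold (adjusted p = 0.206) and the lipase cofactor Clps at 2.37-fold (adjusted p = 0.32).

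Stromal lists were mixed. Acta2, a contractile actin of pericytes, rose 1.88-fold, from 10.3, 21.2 and 16.2 CPM to 41.4, 30.1 and 18.3 CPM, and was 1 of 2 fibroblast and pericyte genes of 14 that rose, a share near that of all genes, the other being Thy1. In the lymph node stroma list 4 of 13 rose, against 11.1% of all genes, among them Cxcl13 and Madcam1. Clu, clusterin, had 279, 351 and 367 CPM at 8 weeks and 527, 585 and 371 CPM at 10 weeks, 1.49-fold higher by estimate (adjusted p = 0.0307) and just under the fold threshold. Prox1, a factor of lymphatic vessels that endocrine cells also make, went the other way with 111, 104 and 90.3 CPM at 8 weeks and 58.8, 68.1 and 80.5 CPM at 10 weeks (log2 fold change -0.56 ± 0.11, adjusted p = 0.0226).

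None of 8 Schwann-cell genes was called. Red-cell transcripts fell, Hba-a1 by 0.64 and Hbb-bs by 0.60 on the log2 scale, with overlap between the ages. Intestinal epithelial genes were not called, with Gucy2c at -0.38 and Vil1 at -0.26. In the mesothelium list 1 of 6 genes tested rose, against 11.1% of all genes, and 4 had estimates above 0, with a median of 0.78. Gpm6a of that list was lower by estimate and did not pass (-0.41, adjusted p = 0.163). Of 16 immediate-early genes, which tissue handling can induce, 2 rose, a share near the 11.1% of all genes, and the median was 0.24, with Zfp36 at 1.62-fold (adjusted p = 0.0585), while Junb at 1.44-fold stayed under the fold threshold.

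Endocrine genes went the other way by a smaller measure, with estimates below 0 in 82 of 87 genes. Over 9 lists of hormone, secretory and endocrine identity genes, 13 fell, none rose, and 28 had an adjusted p under 0.05 and were lower, with a median log2 fold change of -0.42. The latter count was 0 without any 1 of mice 1 and 2 of either age and 64 without mouse 3 of 10 weeks. The share that fell stands beside 2.83% of all genes, and the share lower at the adjusted threshold beside 8.37%. In a whole-islet library, fewer endocrine cells and less RNA of these genes per cell cannot be told apart, nor can either be told apart from a larger share of leukocyte RNA.

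The insulin genes are the main product of beta cells. Ins2, the gene shared with other mammals, was at 169000, 125000 and 118000 CPM in mice 1, 2 and 3 of 8 weeks and at 71800, 97500 and 104000 CPM in mice 1, 2 and 3 of 10 weeks. All mice of 10 weeks were below all mice of 8 weeks, which held for 15.5% of all genes, and Ins2 fell by 0.59 on the log2 scale (1.51-fold, SE 0.19, adjusted p = 0.0502). Ins1, the rodent duplicate and a main autoantigen in this strain, was at 71400, 51000 and 57200 CPM at 8 weeks and at 35000, 47800 and 50600 CPM at 10 weeks and had an estimate of -0.43, which was under the fold threshold (adjusted p = 0.0839). Both genes together held 22.6%, 17.8% and 18.2% of counts at 8 weeks and 11.6%, 15.6% and 16.4% at 10 weeks. Ins1 and Ins2 are close in sequence over the coding part, so that reads could have been split between them.

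Of the 6 other hormone genes 5 had estimates below 0. Pyy, peptide YY, was at 1560, 1170 and 1080 CPM at 8 weeks and at 511, 627 and 960 CPM at 10 weeks, without overlap, and fell by 0.86 on the log2 scale (1.81-fold, adjusted p = 0.0353). Gcg, glucagon, was at 34800, 29500 and 28100 CPM at 8 weeks and at 21500, 22500 and 22700 CPM at 10 weeks, a log2 difference of -0.47 (adjusted p = 0.044) that stayed under the fold threshold. Iapp, amylin, which beta cells release with insulin, had -0.38 (adjusted p = 0.0393). Sst, somatostatin, at -0.23 (adjusted p = 0.339) and Ppy, pancreatic polypeptide, at -0.38 (adjusted p = 0.357) did not pass. Ghrl, ghrelin, was near the limit of detection, with an estimate of 0.92 ± 1.08 (adjusted p = 0.552) from 0.109, 0 and 0.25 CPM at 8 weeks and 0.543, 0.0502 and 0.133 CPM at 10 weeks.

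Beta-cell and endocrine transcription factors were led by Nkx6-1, which holds beta-cell identity (chr5:101658139-101664996, minus strand, GRCm38). It was at 676, 589 and 539 CPM in mice 1, 2 and 3 of 8 weeks and at 318, 334 and 464 CPM in mice 1, 2 and 3 of 10 weeks, without overlap, and fell by 0.69 on the log2 scale (1.62-fold, SE 0.16, adjusted p = 0.0255). Rfx6, a factor of all islet cell types, fell by 0.68, from 99.1, 85.8 and 70.4 CPM to 45.7, 47.9 and 65.8 CPM (adjusted p = 0.0251). Mnx1, a factor of beta-cell development, fell by 0.68, from 26.0, 17.4 and 21.7 CPM to 9.37, 13 and 18.4 CPM (adjusted p = 0.0471). In all 9 of 14 factors of this list had an adjusted p under 0.05 and were lower, among them Neurod1 at -0.55 (adjusted p = 0.0236), while Mafa, a factor of mature beta cells, had 349, 325 and 228 CPM at 8 weeks and 204, 235 and 313 CPM at 10 weeks and did not pass. Pdx1 had -0.39 and an adjusted p of 0.0873, and it overlaps an antisense gene model whose reads may not have been separable.

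Of 16 genes of glucose sensing 5 fell, against 2.83% of all genes, and 10 without both outlying mice. Ucn3, a peptide of mature beta cells (chr13:3940688-3945349, minus strand, GRCm38), was at 564, 487 and 454 CPM at 8 weeks and at 247, 262 and 393 CPM at 10 weeks, without overlap, and fell by 0.74 on the log2 scale (1.67-fold, SE 0.16, adjusted p = 0.0236). Slc2a2, the glucose transporter GLUT2, fell by 0.69, from 1320, 1040 and 925 CPM to 482, 661 and 886 CPM (adjusted p = 0.0433). The incretin receptors Glp1r and Gipr fell by 0.63 and 0.61, and Tmem27, a membrane protein of beta cells, by 0.63. The channel genes Abcc8 at -0.49 and Kcnj11 at -0.45 stayed under the fold threshold.

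Secretion and processing genes mostly stayed under the fold threshold. Of 14 exocytosis genes Sytl4, granuphilin, fell by 0.62, from 665, 574 and 489 CPM to 331, 348 and 446 CPM (adjusted p = 0.0236). No processing gene of 9 was called, and Pam at -0.30 and Scg5 at -0.43 were lower at an adjusted p of 0.0437 and 0.046. Among alpha-cell genes Pou3f4, an alpha-cell factor, fell by 0.70, from 5.25, 4.85 and 4.71 CPM to 3.47, 2.79 and 2.89 CPM (adjusted p = 0.0416), and Ttr by 0.61. In the list of delta, PP and epsilon cells Etv1 had -0.54 (adjusted p = 0.0271) and Pyy was the gene that fell. Of 12 islet autoantigens 1 fell, namely Ins2, against 2.83% of all genes. Iapp was the 1 gene of these 12 with an adjusted p under 0.05, a share near the 8.37% of all genes that were lower at that threshold.

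Endoplasmic reticulum folding genes, which beta cells need in quantity for proinsulin, had a median of -0.05, with none of 16 called. Hspa5, the chaperone BiP, was at 1780, 1900 and 1430 CPM at 8 weeks and at 1610, 1500 and 1740 CPM at 10 weeks. Canx, calnexin, at -0.31 was the 1 member with an adjusted p under 0.05 (0.0285), and Hsp90b1 at -0.25 came next (adjusted p = 0.058).

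Genes that beta cells normally keep silent, the disallowed genes, were listed together with marks of progenitors and of dedifferentiation. In this mixed list 6 of 8 genes tested rose, with a median of 0.88. Hk1, a hexokinase of high affinity, was at 14.6, 26.1 and 30.0 CPM at 8 weeks and at 56.6, 49.2 and 33.8 CPM at 10 weeks, without overlap, a 1.97-fold rise (adjusted p = 0.0299). Ldha, lactate dehydrogenase, rose 2.5-fold (adjusted p = 0.0462), from 21.3, 60.4 and 69.5 CPM to 160, 136 and 82.1 CPM. Sox9, a factor of ducts and of endocrine progenitors that was counted in the duct list too, rose 1.59-fold (adjusted p = 0.0437). Lymphocytes make Hk1 and Ldha at high level, both genes were lowest in mouse 1 of 8 weeks and highest in mouse 1 of 10 weeks as the pan-leukocyte genes were, and their part in these values was not tested. Aldh1a3, a mark of dedifferentiated beta cells, was at 1.02, 0.784 and 1.29 CPM at 8 weeks and at 0.940, 1.31 and 1.89 CPM at 10 weeks and did not pass (adjusted p = 0.413).

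To see which endocrine genes moved relative to the others, the libraries were also scaled so that the 14 pan-endocrine genes had equal levels in each mouse. On that scale the median of the pan-endocrine list was -0.02, the insulin genes were near 0 (Ins1 0.02 ± 0.09, Ins2 -0.14 ± 0.08), and 3 endocrine genes were still lower at an adjusted p under 0.05, as were 0.296% of all genes: Ucn3 at -0.30 ± 0.11, Nkx6-1 at -0.25 ± 0.10 and Pyy at -0.43 ± 0.16 (adjusted p = 0.0339, 0.0453 and 0.0444). On that scale 8040 of 16554 genes (48.6%) were higher at an adjusted p under 0.05 and the median over all genes was 0.46. Of the 16 folding genes 12 were higher, with a median of 0.42, slightly below that of all genes. Also higher were 3 of 14 exocytosis genes, 1 of 11 alpha-cell genes and 3 of 10 genes of the delta, PP and epsilon list, among them Hhex, a delta-cell factor, at 0.61, which was not called on the usual scale. Conversely, when libraries were scaled to 20 pan-leukocyte genes, no lymphoid gene of the 9 lists was called higher, against 0.139% of all genes, the median over all genes moved to -2.38, and the medians of the 9 lists lay between -0.22 and 0.36. The directions given above are thus relative to the library as a whole, and the lymphoid ones are lost against the leukocyte genes.

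**Figure D4:**
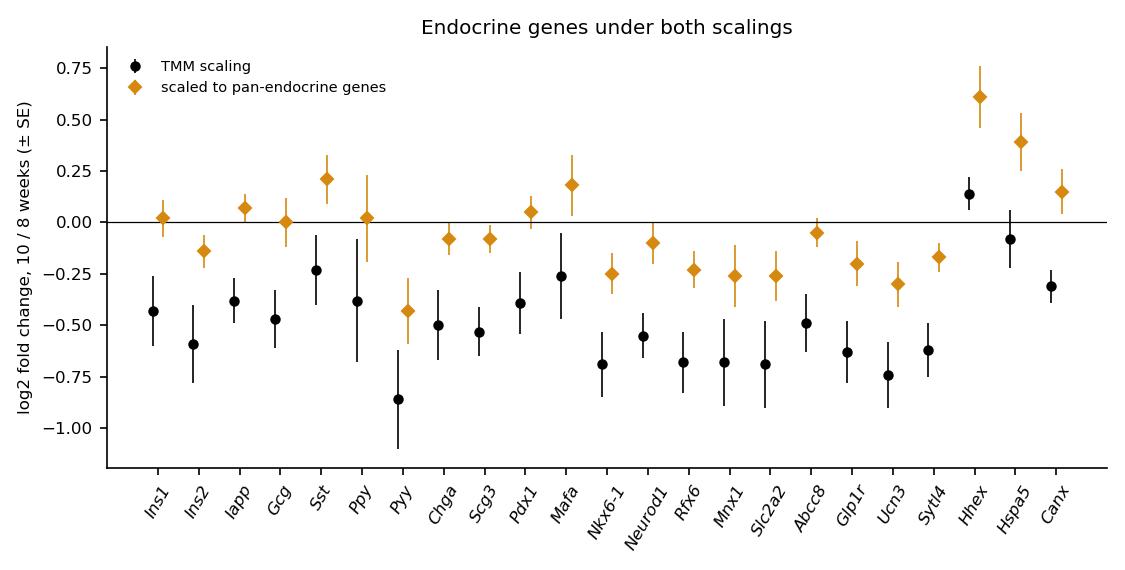
Log2 fold change, 10 against 8 weeks, with its SE for 23 endocrine and folding genes under the usual TMM scaling (black) and with libraries scaled to 14 pan-endocrine genes (orange). Nearly all black points lie below 0, while the orange points scatter about 0, from Pyy at -0.43 to Hhex at 0.61.

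The largest decreases among all genes without overlap were mostly gene models without a name, 6 of 10. The named ones were Asb15, which had 17, 7 and 9 counts at 8 weeks and 3 counts in each mouse of 10 weeks, Rptoros, which fell by 1.61 on the log2 scale, Pcdha8, a clustered protocadherin that shares exons with its neighbours, which also fell by 1.61, and Nkx6-3, a homeobox factor, which fell by 1.52 with 9, 9 and 7 counts at 8 weeks and 0, 4 and 6 counts at 10 weeks. None of these exceeded 2.63 CPM, the value of Pcdha8 in mouse 1 of 8 weeks.

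With all mice kept, fewer genes were called in the neighbouring comparisons. From 6 to 8 weeks 1390 genes rose (8.4%) and 235 fell (1.42%), and from 10 to 12 weeks 266 rose (1.61%) and 93 fell (0.562%). That order rests on single mice: without mouse 1 of 8 weeks 2259 genes were called from 6 to 8 weeks against 1275 from 8 to 10 weeks, and without mouse 1 of 10 weeks 1601 against 1270. These comparisons share the mice of 8 or 10 weeks with the one described, so that their values are set side by side and not correlated. The B-cell list had medians of 3.68, 1.98 and 0.45 for the changes to 8, 10 and 12 weeks, and the T-cell list 2.73, 1.71 and 0.20. Without mouse 3 of 8 weeks the T-cell list had 2.14 and 2.31 for the changes to 8 and 10 weeks, and the venule list, at 2.40 and 1.56 with all mice, had 1.70 and 2.01. Proliferation had 0.22, 1.11 and -0.04, or 0.53, 0.74 and -0.04 without mouse 1 of 8 weeks, and none of its 20 genes was called in either neighbouring comparison. Type I interferon genes had 1.04, 1.17 and -0.29, or 1.43, 0.77 and -0.29 without mouse 1 of 8 weeks, and beta-cell transcription factors -0.22, -0.47 and -0.10.

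**Figure D5:**
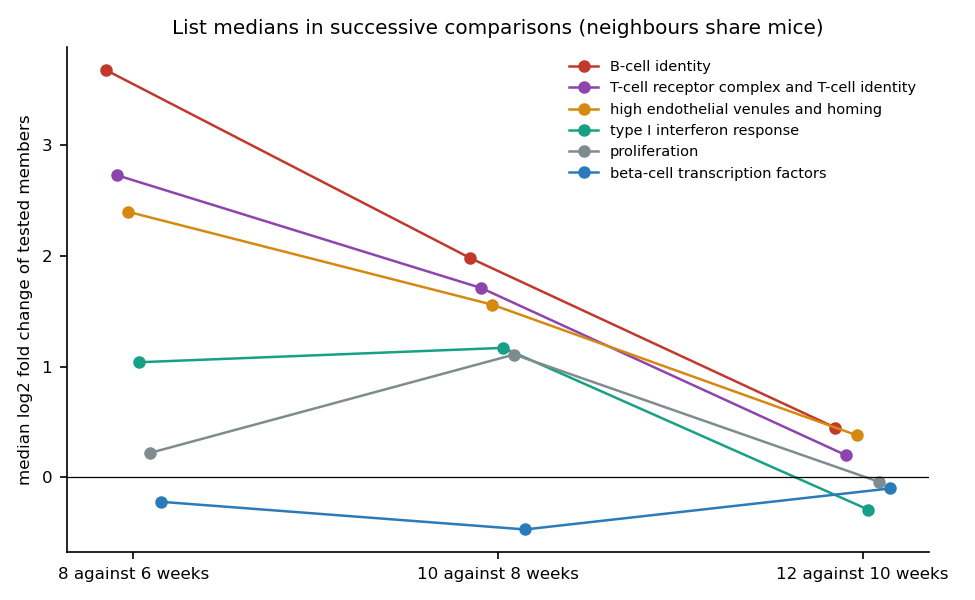
Median log2 fold change of the tested members of 6 gene lists (y axis) in the comparisons of 8 with 6, 10 with 8 and 12 with 10 weeks (x axis), which share mice. With all mice kept, the B-cell, T-cell and venule lists decline over the comparisons, and proliferation has 1.11 between 0.22 and -0.04, or 0.74 between 0.53 and -0.04 without mouse 1 of 8 weeks.

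Single genes are given in the same order of comparisons. Pax5 was at 0.436, 0.263 and 1.02 CPM in the mice of 6 weeks and at 41.3, 62.9 and 64.2 CPM in those of 12 weeks, with log2 changes of 3.78, 2.32 and 0.57. Mcm2, at 18.5 to 23.1 CPM at 6 weeks and 28.0 to 33.9 CPM at 12 weeks, had -0.16, 0.85 and -0.05, and the change to 10 weeks exceeded the one before by 1.01 ± 0.29 and the one after by 0.90 ± 0.28 (adjusted p = 0.355 and 0.361). Ucn3 had 0.05, -0.74 and -0.03, and its change to 10 weeks differed from the one before by -0.79 and from the one after by -0.71 (adjusted p = 0.366 and 0.401). Glycam1 and Ccl21a, a chemokine of lymph node stroma, went on to rise from 10 to 12 weeks, by 2.18 and 2.25 on the log2 scale. After adjustment over all genes no difference between successive changes passed in edgeR, with 1741 genes at an unadjusted p under 0.05 against the change before and 1915 against the change after, and DESeq2 gave 107 and 42 genes with an adjusted p under 0.05.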

How the data were processed

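Islet RNA of 15 NOD/ShiLtJ females, 3 per age, was measured. The authors trimmed and mapped reads in CLC Genomics Workbench 23.0, and their processing notes name mm10. From the deposited table, these units were used: total counts per gene, which are whole numbers without normalization, and TPM, which the authors computed. Another 30 deposited per-sample columns (RPKM and CPM) were not used. How the counting treated strand and shared reads is not given in the sources used here. Depth of the 6 libraries was 25407492 to 37075834 counts, and a floor of 3 counts covers counting error only.

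Genes were kept with edgeR's filterByExpr over 5 ages (16554 of 48709) and fitted over all 15 mice with TMM scaling and the quasi-likelihood test (edgeR 4.0.16, limma 3.58.1, R 4.3.3), and p-values were adjusted by Benjamini-Hochberg over all genes tested. CPM values here are counts scaled to TMM-adjusted library size. The 8 against 6 and 12 against 10 week comparisons and their differences from the 10 against 8 week change came from the same fit. Nothing in the labels says more of the replicates than that each was a separate mouse. Counts were simulated for 10 against 8 weeks over 16554 genes, with changed genes drawn from those with a mean of at least 1 CPM. At an adjusted p under 0.05, 75 of 100 genes changed by 1 and 99 of 100 changed by 2 on the log2 scale were recovered. There were 9 false calls. Noise was drawn for each gene on its own, without the shared leukocyte differences between the real mice. These shares thus do not give the power of the real comparison.

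The ages compared, the 40 gene lists (489 genes) and the tests were chosen with earlier results of these data known. Genes named were members of a list, with at least the 2 smallest p-values of each, and the 10 largest changes in each direction among called genes without overlap between the ages, of which receptor segments and gene models without a name were counted only. Some genes that this rule names are not reported here. Alternatives were DESeq2 size factors, library totals, no filter, a fit of the ages compared alone, edgeR's exact test, DESeq2 1.42.0, a replicate block, scaling to pan-endocrine or pan-leukocyte genes, and each mouse left out. Leaving out 8-week mouse 1 and 10-week mouse 3 together, and list medians of the neighbouring comparisons with each mouse left out, were added after seeing the data. Promoters were RefSeq's (GRCm38.p6). Tables and figures used Python 3.11.15, pandas 2.3.3 and matplotlib 3.10.9.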

Additional observations from a re-analysis of the deposited data

How the results depend on the processing

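The cause of these changes was not tested. Genes past the fold and p threshold at 10 against 8 weeks numbered 2306 (79.7% higher), 2452 with library totals (91.2% higher, with the median of all genes at 0.104) and 1270 to 3518 with each mouse left out. Genes with an adjusted p under 0.05 numbered 2776, 0 in the fit of 8 and 10 weeks alone (smallest adjusted p 0.171), 140 in edgeR's exact test, 4096 in DESeq2, 1872 with no filter on low counts and 0 to 5612 with each mouse left out. Lymphoid genes that rose numbered 50, 24 to 66 with each mouse left out and 0 with libraries scaled to pan-leukocyte genes. That scaling also left 0 of 16 B-cell, 0 of 6 T-cell and 0 of 18 proliferation genes, against ranges with each mouse left out of 12 to 16, 1 to 8 and 10 to 20. Fitting 8 and 10 weeks alone left 1 T-cell and 8 proliferation genes, and DESeq2 left 3 T-cell genes. Endocrine genes lower at an adjusted p under 0.05 numbered 28, 14 with library totals, 16 with no filter, 0 with 8 and 10 weeks alone, 0 in the exact test, 50 in DESeq2, 3 with pan-endocrine scaling, 0 to 64 with each mouse left out and 50 with 8-week mouse 1 and 10-week mouse 3 left out. Differences from the 10 to 12 week change numbered 0 in edgeR, 42 in DESeq2, 0 to 53 with each mouse left out and 6 with both mice left out. Differences from the 6 to 8 week change numbered 0, 107 in DESeq2 and 0 to 1 with each mouse left out. Hspa5, which was not called, changed sign with library totals (0.04) and without mouse 2 of 8 weeks (range with each mouse left out -0.19 to 0.01). Of the 40 lists 38 kept the sign of their median in all 14 alternatives other than the scalings to endocrine or leukocyte genes, the exceptions being folding (-0.14 to 0.06) and endothelium (-0.02 to 0.16).

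Same-numbered mice of the ages compared correlated at -0.397, 0.0889 and -0.437. These values cannot decide whether the replicate numbers paired the mice, since mice of an age differed widely in leukocyte level. The labels do not say what the numbers stand for. With a replicate block 2091 genes passed the fold and p threshold, 0 had an adjusted p under 0.05 (smallest 0.0549), 3 T-cell genes rose and 0 endocrine genes were lower at an adjusted p under 0.05.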

Other observations

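Cytosolic ribosomal protein genes, a group picked after its values were seen, were higher at 10 weeks as a block. Of 76 genes tested 14 rose (against 11.1% of all genes), 71 had an adjusted p under 0.05 and were higher (against 8.4%), and the log2 fold changes ran from 0.19 to 0.79 with a median of 0.48. The median was 0.50 with 8-week mouse 1 and 10-week mouse 3 left out, 0.95 with libraries scaled to pan-endocrine genes and -1.88 with libraries scaled to pan-leukocyte genes. Mitochondrial ribosomal proteins had a median of 0.09, with 1 of 77 genes called. Proteasome genes had a median of 0.21, with 5 of 47 called, a share near that of all genes, and the 13 genes of the mitochondrial genome had -0.34, with none called and 4 lower at an adjusted p under 0.05.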
